A study of Mus musculus with 8 samples.

Results

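The genes examined were those of the constitutive proteasome, taken as the protein-coding mouse genes whose symbols begin with Psma to Psmg followed by a number, leaving out the immunoproteasome genes Psmb8, Psmb9, Psmb10, Psme1 and Psme2. The rule found 45 genes among the 55385 in the count table, of which 44 had enough counts to be tested among 17537 tested genes. Polyadenylated RNA was sequenced from primary microglia grown from the hippocampi and neocortices of wild-type newborn mice, with cells of several brains pooled in flasks. Microglia were shaken off after 12 days, replated for 3 days and, at DIV15 (day in vitro 15), given IgG at 10 µg/ml for 24 h (4 libraries) or no IgG (4 libraries). The labels call the controls untreated, and the study's methods give PBS. The label of each IgG library carries the same date as that of 1 control library, without saying what was done on that date. The 8 libraries thus form 4 pairs. In the paired fit, p-values set the change within pairs against the spread of that change between pairs.

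The proteasome is the main protease for ubiquitin-tagged proteins. Its barrel-shaped 20S core has outer rings of α subunits (Psma genes), which form the gate, and inner rings of β subunits (Psmb genes), among which Psmb5, Psmb6 and Psmb7 carry the active sites. The 19S cap recognises, unfolds and feeds substrates through a ring of ATPases (Psmc genes) and a set of non-ATPase subunits (Psmd genes), and core and cap together are called the 26S proteasome. In cells exposed to interferon, Psmb8, Psmb9 and Psmb10 replace Psmb5, Psmb6 and Psmb7 in newly built cores, which yields the immunoproteasome. Microglia degrade cytosolic proteins and prepare antigen peptides with both forms.

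The symbol rule also took in genes that are not constitutive subunits. Psmc3ip encodes a meiotic recombination factor, Psme2b is a near copy of the immunoproteasome cap gene Psme2, Psma8 is a core subunit of the testis, and Psmb11 is the catalytic subunit of the thymus. Psmb11 was not tested: it had 0 counts in every control library and 1, 0, 1 and 1 counts in IgG libraries 1 to 4, which is under the 3 counts that a count of 0 allows, or 0.127 to 0.141 CPM of the library total. All other CPM values are relative to totals scaled between libraries by TMM (trimmed mean of M-values). Reads of Psme2b could have been shared with Psme2 and are uncertain. Exons of other genes covered 25.5% of the exon bases of Psmd9, 21.2% of Psmc3ip, 12.1% of Psmb5, 11.8% of Psmb7 and 10.1% of Psmd13, where reads may belong to the neighbour. The processed copies Psmb5-ps, Psmb6-ps, Psmb6-ps2 and Psmb7-ps2 held 0, 0, 18 and 2 counts in all 8 libraries together.

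Library totals ran from 21287816 to 23703216 counts. Mitochondrial genes took 2.32% to 2.41% of the counts in the controls, but 4.85% and 5.59% in IgG libraries 1 and 3, against 2.21% and 1.97% in IgG libraries 2 and 4. IgG libraries 1 and 3 thus stood apart in this share. Fold changes from pairs 2 and 4 alone are given below for the genes as a group and beside genes described in full. These pairs are not a cleaner reference. The chi-square per degree of freedom between gene counts was 121, 26.9 and 121 for IgG library 4 against IgG libraries 1 to 3. It was 65.3 for IgG library 2 against 1, 70.6 against 3, and 6.59 between 1 and 3. A fit of only 2 pairs also has little spread to judge by. All 9 microglia markers were above 1 CPM, and their summed level was 5497 to 5858 CPM in controls and 5800 to 6958 CPM with IgG. Summed markers were at 157 to 175 CPM in controls and 141 to 166 CPM with IgG for astrocytes, at 1186 to 1803 and 1020 to 1698 CPM for the oligodendrocyte lineage, at 39.5 to 61.6 and 35.0 to 50.5 CPM for neurons, at 3.52 to 7.01 and 4.86 to 6.43 CPM for fibroblasts, and at 57.2 to 81.9 and 51.3 to 106 CPM for border-associated macrophages. With IgG, the fitted fold change was above 0 for 8 of 9 tested microglia markers, 1 of 8 of astrocytes, 0 of 8 of the oligodendrocyte lineage, 1 of 6 of neurons, 4 of 4 of fibroblasts and 2 of 3 of border-associated macrophages. No marker was at 0 in all libraries, and the part of other cells in the values below was not tested. In bulk RNA, fewer cells of a type and less RNA per cell cannot be told apart.

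Promoter windows, from 250 bases before to 50 bases after the start site in RefSeq (GRCm38.p6), were found for 37 of the 45 genes. The exceptions were Psmb1, Psmb2, Psmb7, Psmc3, Psmd3, Psmd7, Psmg2 and Psma8. Both strands were searched for the letters CCAAT (the box bound by NF-Y), TGACNNNGC (the core of the antioxidant response element, bound by Nfe2l1 and Nfe2l2 with small Maf proteins) and GAAANNGAA (the core of the interferon-stimulated response element). Psma6 and Psmc2 had windows at different start sites, and a match in any window of a gene was counted. CCAAT was found for 14 of the 37 genes (37.8%, against 41.1% of 27018 genes). TGACNNNGC was found for 6 genes (16.2% against 14%), Psmb5, Psmb6, Psmc6, Psmd12, Psmd9 and Psme4. GAAANNGAA was found for 6 genes (16.2% against 9.76%), Psmb3, Psmb4, Psmc2, Psmd4, Psmg4 and Psmd9. Such a match is a description of the letters only.

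The windows of the catalytic genes Psmb5 (chr14:54617946-54618245, minus strand) and Psmb6 (chr11:70525107-70525406, plus strand) are shown because these genes, whose values open the account of the β ring, each hold 1 TGACNNNGC match, beginning at positions -47 and -9 from the start site. The window of the α ring gene Psma1 (chr7:114276067-114276366, minus strand) is shown beside them as one with 2 CCAAT matches, 1 on each strand. Capitals mark the matches, and each window is written 5′ to 3′ on the strand of the gene.

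Psmb5: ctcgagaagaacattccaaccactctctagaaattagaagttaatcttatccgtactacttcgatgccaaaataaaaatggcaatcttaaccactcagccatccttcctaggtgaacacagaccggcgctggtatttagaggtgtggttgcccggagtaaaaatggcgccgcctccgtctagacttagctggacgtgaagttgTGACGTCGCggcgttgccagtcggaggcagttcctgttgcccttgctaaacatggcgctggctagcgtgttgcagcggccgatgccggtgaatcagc
Psmb6: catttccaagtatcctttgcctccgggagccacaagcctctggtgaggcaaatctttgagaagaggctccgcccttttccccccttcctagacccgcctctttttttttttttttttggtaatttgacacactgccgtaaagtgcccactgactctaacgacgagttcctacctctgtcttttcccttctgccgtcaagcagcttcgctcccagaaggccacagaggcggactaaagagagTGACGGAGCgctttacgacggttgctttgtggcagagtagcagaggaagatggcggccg
Psma1: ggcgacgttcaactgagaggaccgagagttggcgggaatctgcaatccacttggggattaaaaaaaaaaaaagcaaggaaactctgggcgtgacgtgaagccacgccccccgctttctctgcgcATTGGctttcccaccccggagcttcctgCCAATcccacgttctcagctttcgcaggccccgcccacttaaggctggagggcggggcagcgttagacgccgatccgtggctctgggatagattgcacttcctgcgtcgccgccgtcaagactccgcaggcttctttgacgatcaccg

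In control microglia the proteasome genes were expressed at a steady level. The median of the tested genes was 59.9 CPM, against 14.1 CPM over all tested genes, and their median coefficient of variation between the 4 controls was 4.81%, against 9.12%. A low value was not particular to them. It was 3.63% for the proteasome-associated factors and 4.32% for the regulators of proteasome genes described below, but 15.1% for the immunoproteasome genes. With IgG the median over the proteasome genes was 9.75%, against 19.4% over all tested genes. The coefficient was above its control value for 40 of the 44 genes. The proteasome genes together held 0.298% to 0.308% of all counts in the controls, and 0.304%, 0.306%, 0.306% and 0.329% in IgG libraries 1 to 4. Their summed level was 2860 to 2992 CPM in the controls and 3337, 2959, 3299 and 3319 CPM with IgG. After the scaling between libraries, IgG library 2 lay within the control range and the other IgG libraries lay above it.

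**Figure D1:**
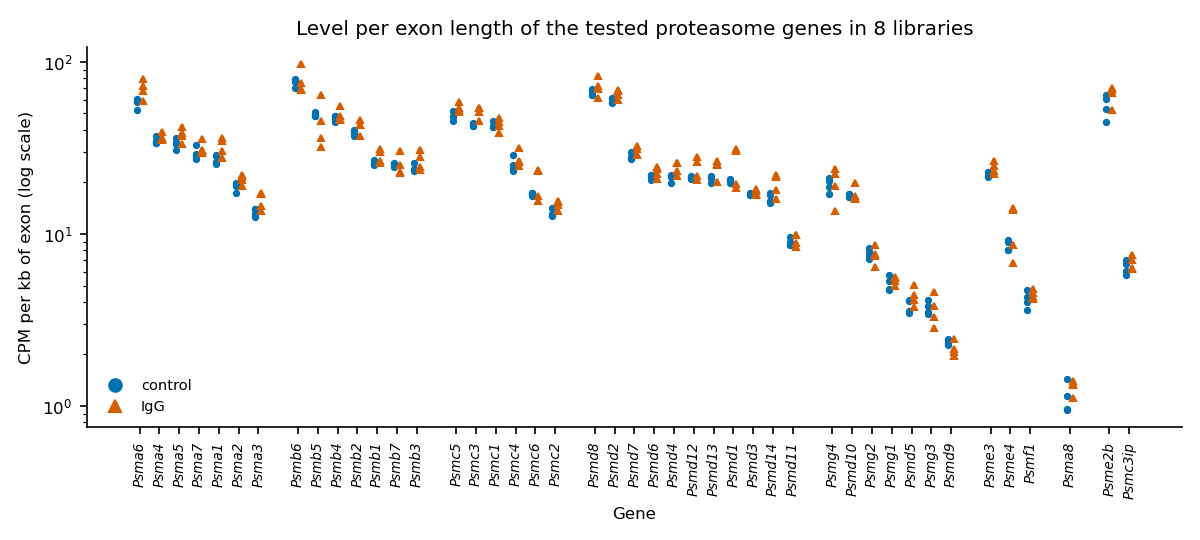
Level of each tested proteasome gene in CPM per kb of exon (log axis) in 4 control libraries (circles) and 4 IgG libraries (triangles), with genes ordered within their role group. The 26S genes lie between about the level of Psmd11 (8.94) and that of Psmb6 (75.9) in the controls, and Psma8 lies lowest.

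Levels between genes were compared as CPM per kb of exon in the controls. Psmb6 was highest at 75.9, followed by the cap subunit Psmd8 at 66.0, the cap scaffold Psmd2 at 59.4 and the α subunit Psma6 at 57.7. Among the 31 genes of the 26S proteasome that the rule found the lowest was Psmd11, a lid subunit, at 8.94, so that genes whose products enter the same particle differed 8.50-fold on this scale. The order depended on the length used: per kb of the principal transcript Psmb6 was at 178 and Psma3 was lowest at 18.3, and the Spearman correlation between both scales over the 31 genes was 0.775. The assembly chaperones, which are not part of the finished particle, ranged from 2.35 (Psmd9) to 19.3 (Psmg4) per kb of exon. Psma8 was at 1.12, Psme2b at 55.7 and Psmc3ip at 6.36.

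IgG and control microglia were then compared within pairs. No proteasome gene was called at an adjusted p-value under 0.05, where 0.393% of all tested genes (69) were, and the smallest adjusted p-value was 0.443 (Psmc3, edgeR quasi-likelihood test with the pairs as a block). Log2 fold changes were small, with a median of 0.12 that ran from -0.20 (Psmb5) to 0.28 (Psme4), against a median of -0.01 over all tested genes. The fold change was above 0 for 39 of the 44 genes (88.6%), against 49.1% of all tested genes. Standard errors were 0.08 to 0.19 with a median of 0.10, against a median absolute log2 change of 0.13. The size of the median depended on the scaling: with library totals in place of TMM scaling the median of all genes moved to -0.11 and that of the proteasome genes to 0.02, with 26 of 44 above 0 and 39 above the median of all genes.

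At an unadjusted p-value under 0.05, 4 genes were higher with IgG (9.09%, against 6.35% of all tested genes) and 0 were lower (against 3.85%). The 4 were the α ring genes Psma1, Psma3 and Psma6 and the ATPase gene Psmc3. None of them passed this threshold without pair 1 or without pair 3, where 4.44% and 4.24% of all tested genes did. Nor did any of them with library totals or with DESeq2, for which the share of all genes is not given. By the criterion of the study, an unadjusted p-value under 0.01 with an absolute log2 fold change above 0.5, 0 proteasome genes and 1.82% of all tested genes passed. Higher in all 4 pairs were 10 genes (22.7%, against 10.4%), and lower in all 4 pairs were 0 (against 8.47%). Every IgG library lay above every control for 1 gene, Psmc3 (2.27%, against 2.6%), and every IgG library lay below every control for 0 (against 1.57%). Without the replicate block, 5 genes had an unadjusted p-value under 0.05 (11.4%, against 7.01%), the same 4 and Psmd14, and the median fold change was again 0.12. Without pair 4, the median was 0.06, with 31 of 44 genes above 0 (48.5% of all genes tested in that fit). From pairs 2 and 4 alone, the median was 0.14, with 36 of 44 genes above 0 (49.4% of all genes tested in that fit). At an unadjusted p-value under 0.05, 3 genes were higher there (6.82%, against 3.89%), Psma5, Psmb3 and Psme2b, none of them among the 4, and 0 passed the adjusted threshold, where 1.07% of all genes did (190).

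**Figure D2:**
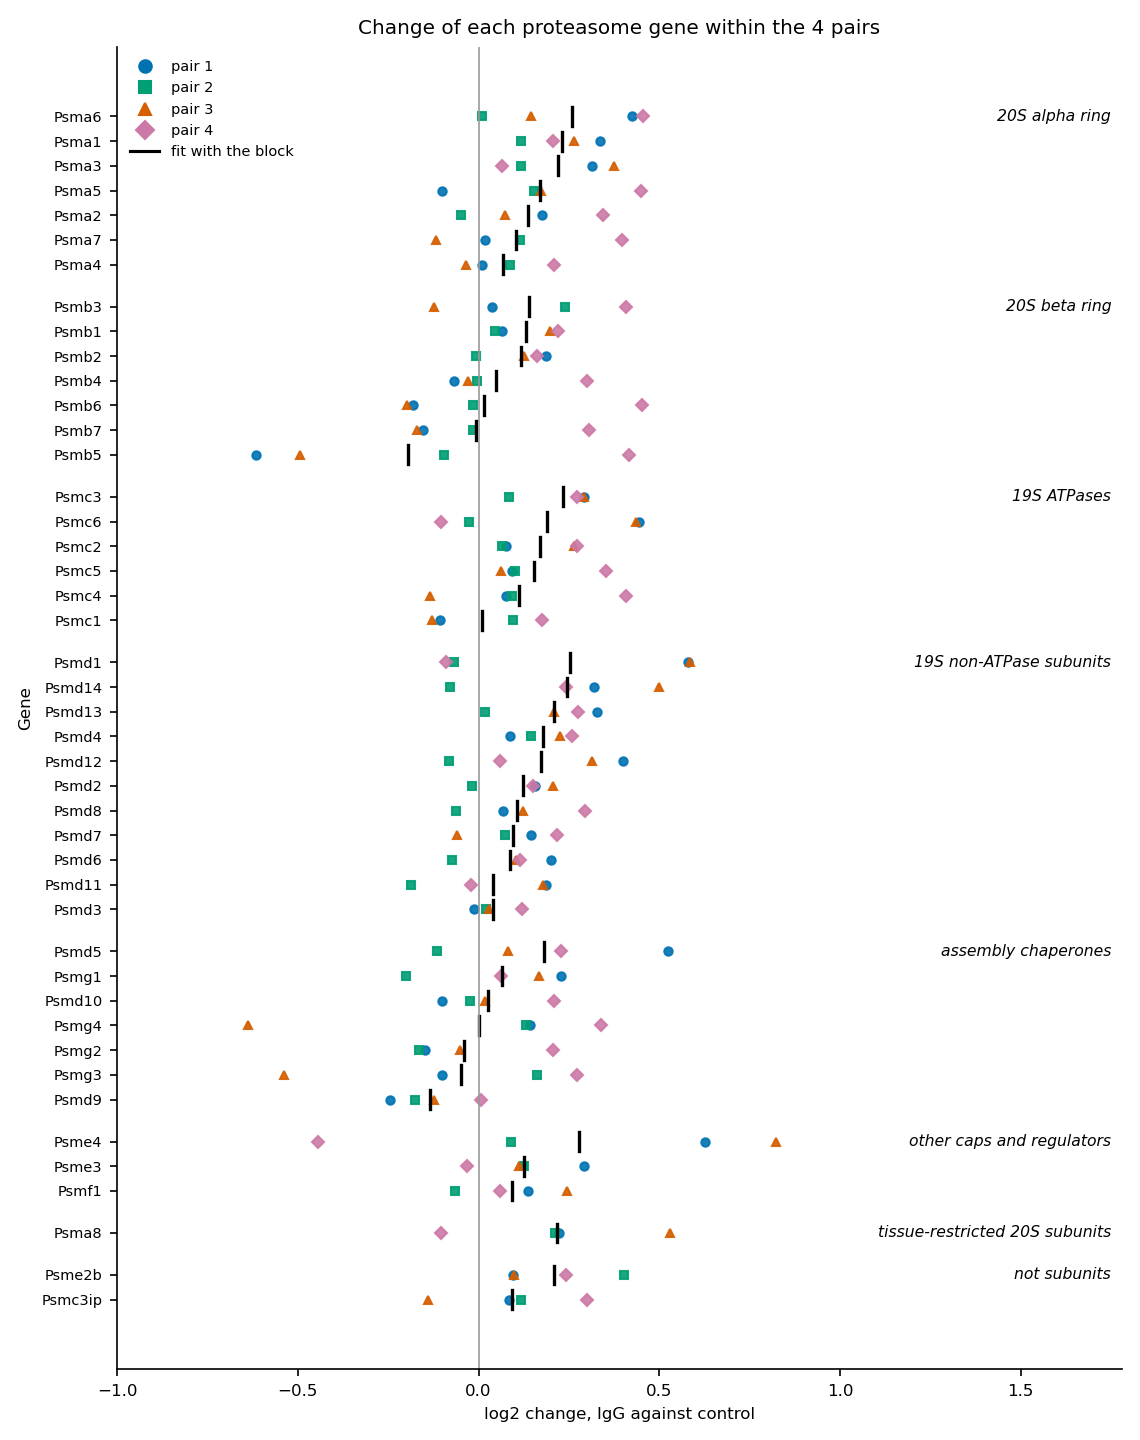
Log2 change, IgG against control, of the 44 tested genes within each of the 4 pairs (coloured symbols) and in the fit across all pairs (black bars), ordered by fold change within each role group. All 7 α ring genes have a bar above 0, whereas the symbols of Psmb5 range from -0.61 to 0.42.

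The genes of the α ring had a median fold change of 0.17, close to that of the ATPases below, with 7 of 7 above 0 and pair medians of 0.17, 0.12, 0.14 and 0.35. Psma6 was at 72.7, 72.4, 74.9 and 64.6 CPM in controls 1 to 4 and at 97.6, 72.9, 82.8 and 88.7 CPM in the matching IgG libraries. The IgG value of pair 2 lay within the control range and the other 3 lay above every control, and the log2 fold change was 0.26 ± 0.11 (SE, unadjusted p = 0.039, adjusted p = 0.474), and 0.23 from pairs 2 and 4 alone. Psma3 was at 54.4, 48.5, 51.0 and 54.0 CPM in the controls and at 67.6, 52.7, 66.2 and 56.5 CPM with IgG. It was higher within every pair, although IgG library 2 lay within the control range (0.22 ± 0.09, adjusted p = 0.487), and its fold change was 0.09 from pairs 2 and 4 alone. Psma1 was at 83.6, 75.1, 85.0 and 77.3 CPM in the controls and at 106, 81.4, 102 and 89.3 CPM with IgG (0.23 ± 0.09, unadjusted p = 0.028, adjusted p = 0.454), and is named here after its values were seen. Here too the groups overlapped in library 2 alone, and the fold change was 0.16 from pairs 2 and 4 alone. The remaining α genes Psma2, Psma4, Psma5 and Psma7 had fold changes of 0.07 to 0.17 and were each higher in 3 of 4 pairs.

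The β ring had a median fold change of 0.05, with 5 of 7 genes above 0, and its pair medians were -0.07, -0.01, -0.12 and 0.31. Psmb5, which encodes the subunit with chymotrypsin-like activity (ENSMUSG00000022193, chr14:54614119-54618022, minus strand), was at 44.0, 43.5, 45.6 and 43.2 CPM in controls 1 to 4 and at 28.7, 40.7, 32.3 and 57.7 CPM with IgG. The controls agreed closely, with a coefficient of variation of 2.39%, but the IgG libraries spread over 32.4%. Libraries 1 to 3 lay below every control and library 4 lay above. The log2 fold change of -0.20 ± 0.17 was the lowest of the 44 and did not pass the test (adjusted p = 0.675). From pairs 2 and 4 alone it turned to 0.16, and without pair 4 it was at -0.42. Its changes within pairs were -0.61, -0.10, -0.50 and 0.42.

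The other catalytic genes were likewise lower with IgG in pairs 1 to 3 and higher in pair 4, but in pair 2 changed only by -0.01 (Psmb6) and -0.02 (Psmb7). These signs were not particular to catalytic genes, as Psmb4, which has no active site, had the same sign in each pair. Psmb6, for the caspase-like activity (ENSMUSG00000018286, chr11:70525367-70527858, plus strand), was at 148, 142, 147 and 132 CPM in the controls and at 130, 140, 128 and 181 CPM with IgG. Psmb7, for the trypsin-like activity (ENSMUSG00000026750, chr2:38588036-38644087, minus strand), was at 85.7, 86.4, 88.1 and 83.1 CPM in the controls and at 77.0, 85.4, 78.3 and 103 CPM with IgG. For both, IgG library 4 was the highest of the 8 and IgG libraries 1 and 3 were the lowest. The log2 fold changes were 0.01 ± 0.12 for Psmb6 and -0.01 ± 0.11 for Psmb7, with adjusted p-values of 0.971 and 0.980. Both signs depended on the setting, as Psmb6 was at -0.09 with library totals and Psmb7 at 0.0014 without the block. They were at 0.22 and 0.15 from pairs 2 and 4 alone, and at -0.15 and -0.13 without pair 4. Among the β genes without an active site, Psmb3 was lowest in level per kb (24.0), with 54.9, 54.1, 58.9 and 53.4 CPM in the controls and 56.3, 63.8, 54.1 and 70.8 CPM with IgG. Its groups overlapped, and its fold change was 0.14 ± 0.11 (adjusted p = 0.651) and 0.32 from pairs 2 and 4 alone. Psmb1, Psmb2 and Psmb4 were at 0.05 to 0.13.

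**Figure D3:**
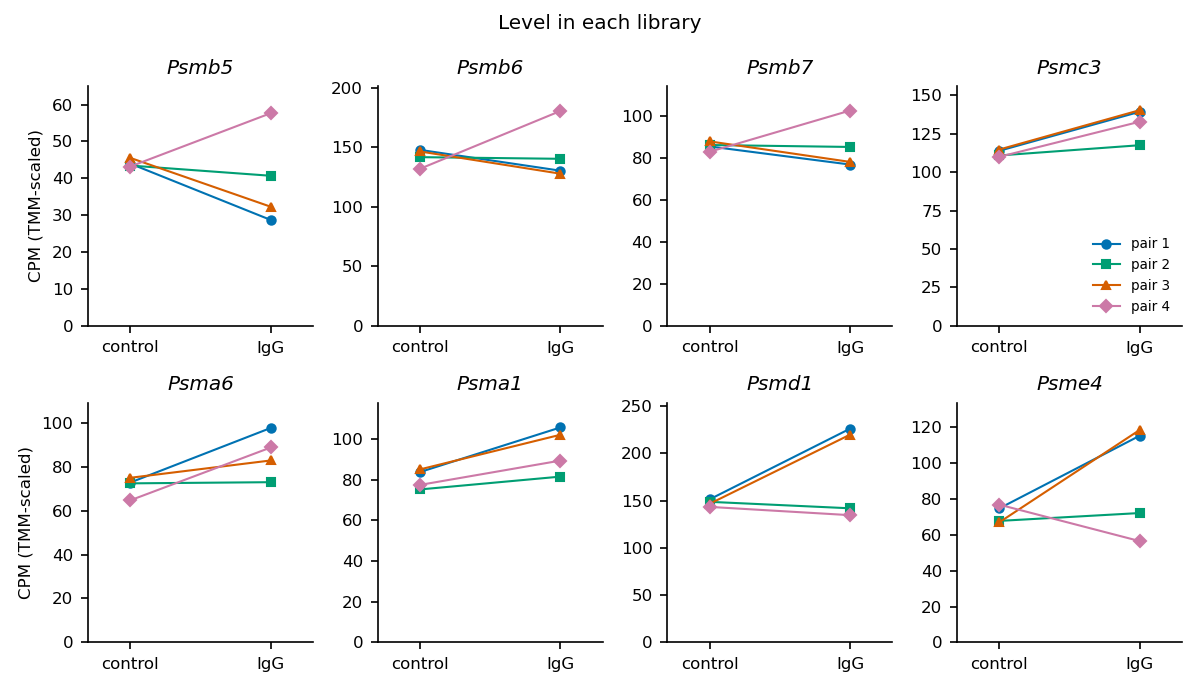
Level in CPM of 8 proteasome genes in each control library and the IgG library of the same date, joined by a line per pair. Psmb5, Psmb6 and Psmb7 are higher with IgG in pair 4 only, Psmc3, Psma6 and Psma1 in all 4 pairs, and Psme4 in pairs 1 to 3 only.

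The ATPase genes of the 19S cap had a median fold change of 0.16, with 6 of 6 above 0. Psmc3 (ENSMUSG00000002102, chr2:91054009-91066369, plus strand) was at 114, 111, 115 and 110 CPM in the controls and at 139, 118, 140 and 133 CPM with IgG. These groups did not overlap, and the changes within pairs were 0.29, 0.08, 0.29 and 0.27. The fold change was 0.23 ± 0.09, with an unadjusted p-value of 0.026 and an adjusted p-value of 0.443, and 0.18 from pairs 2 and 4 alone. Psmc5, highest of the ATPases per kb of exon (48.4), was at 66.5, 67.7, 72.1 and 63.3 CPM in the controls and at 71.0, 72.7, 75.3 and 80.7 CPM with IgG. It was higher within every pair, with overlapping groups (0.15 ± 0.09, adjusted p = 0.587). Psmc2, the lowest per kb (13.1), was at 70.6, 65.5, 64.5 and 64.0 CPM in the controls and at 74.3, 68.5, 77.5 and 77.4 CPM with IgG. Again every pair was higher and library 2 overlapped the controls (0.17 ± 0.09, adjusted p = 0.546). Psmc5 and Psmc2 were at 0.23 and 0.17 from pairs 2 and 4 alone. Psmc1, Psmc4 and Psmc6 were at 0.01 to 0.19 over all pairs.

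Of the non-ATPase subunits of the cap with Psmd symbols, 11 of 11 had a fold change above 0 (against 49.1% of all tested genes), with a median of 0.12. An unadjusted p-value under 0.05 was found for 0 of the 11, against 10.2% of all tested genes. With the cap subunits Adrm1 and Sem1, which the symbol rule leaves out and which were at -0.11 and -0.26, 11 of 13 were above 0 and the median was 0.11. The pair medians were 0.19, -0.06, 0.21 and 0.15, and 4 of the 11 were higher in pair 2. Psmd1, a scaffold of the cap, was at 151, 149, 147 and 143 CPM in the controls and at 226, 142, 220 and 135 CPM with IgG. Thus IgG libraries 1 and 3 lay far above every control and IgG libraries 2 and 4 below every control (0.25 ± 0.14, adjusted p = 0.564). From pairs 2 and 4 alone its fold change was -0.08, and without pair 4 it was 0.35. Psmd14, the deubiquitinase that removes the ubiquitin chain before degradation, was at 48.4, 47.6, 43.8 and 42.7 CPM in the controls and at 60.3, 45.0, 61.9 and 50.5 CPM with IgG. Library 2 alone overlapped the controls (0.25 ± 0.11, unadjusted p = 0.058, adjusted p = 0.503), and the fold change was 0.08 from pairs 2 and 4 alone. Psmd8, highest of this group per kb, was at 211, 195, 195 and 206 CPM in the controls and at 220.5, 187, 212 and 253 CPM with IgG, with a fold change of 0.11 ± 0.09 (0.12 from pairs 2 and 4 alone). Psmd11 was at 54.9, 61.3, 55.1 and 56.9 CPM in the controls and at 62.6, 53.8, 62.3 and 56.0 CPM with IgG. Both of these pairs of groups overlapped, and the fold change of Psmd11 (0.04 ± 0.10) turned to -0.06 with library totals and to -0.10 from pairs 2 and 4 alone. Psmd2, Psmd3, Psmd4, Psmd6, Psmd7, Psmd12 and Psmd13 were at 0.04 to 0.21, of which Psmd4, a ubiquitin receptor, and Psmd13 were higher in all 4 pairs.

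The assembly chaperones, which help to build the α ring (Psmg1 to Psmg4) or the base of the cap (Psmd5, Psmd9 and Psmd10), had a median fold change of 0.00, with 4 of 7 above 0. Psmd9 was at 16.7, 17.6, 16.2 and 17.6 CPM in the controls and at 14.1, 15.6, 14.9 and 17.7 CPM with IgG. The first 3 IgG libraries lay below every control and the fourth above (-0.13 ± 0.10, adjusted p = 0.653). Psmg3 was at 10.1, 9.83, 11.9 and 10.98 CPM in the controls and at 9.43, 11, 8.20 and 13.3 CPM with IgG. Psmg2 was at 12.3, 14.4, 13.7 and 12.9 CPM in the controls and at 11.1, 12.8, 13.2 and 14.9 CPM with IgG. Neither gene separated the groups, with fold changes of -0.05 ± 0.16 and -0.04 ± 0.12. Psmg4 was at 9.50, 11.3, 11.7 and 10.4 CPM in the controls and at 10.5, 12.3, 7.51 and 13.2 CPM with IgG. Its change of -0.64 in pair 3 stood against 0.14, 0.13 and 0.34 in the others, and the fitted value was 0.00 ± 0.17, or 0.24 from pairs 2 and 4 alone. Its sign, like those of Psmg2 and Psmg3, changed with the setting. With pairs 2 and 4 alone, Psmd9 was at -0.08, Psmg3 at 0.22 and Psmg2 at 0.02.

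Of the other caps and regulators, Psme4 encodes a cap that acts on acetylated histones, Psme3 the nuclear cap and Psmf1 a protein that binds and inhibits the core in vitro. Psme4 was at 74.8, 67.8, 67.0 and 76.9 CPM in the controls and at 115, 72.2, 119 and 56.5 CPM with IgG. It had the highest fold change of the 44 genes (0.28 ± 0.19, adjusted p = 0.621) and also the widest spread between pairs, with changes of 0.63, 0.09, 0.82 and -0.44. From pairs 2 and 4 alone it was at -0.18, and without pair 4 at 0.50. Psme3 was at 64.2, 63.0, 67.2 and 67.4 CPM in the controls and at 78.6, 68.7, 72.6 and 66.0 CPM with IgG (0.12 ± 0.09, adjusted p = 0.640). Psmf1 was at 27.8, 30.5, 23.2 and 25.8 CPM in the controls and at 30.6, 29.2, 27.5 and 26.9 CPM with IgG (0.09 ± 0.10, adjusted p = 0.729). In both genes the groups overlapped, and with pairs 2 and 4 alone Psme3 was at 0.05 and Psmf1 turned to -0.0028.

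Among the genes that the rule took in beside the constitutive subunits, Psme2b was at 53.9, 44.3, 51.1 and 37.3 CPM in the controls and at 57.6, 58.5, 54.7 and 44.1 CPM with IgG. It was higher within every pair but the groups overlapped in library 4 (0.21 ± 0.09, adjusted p = 0.501), and it was at 0.32 with pairs 2 and 4 alone. Psma8 was at 2.36, 2.84, 2.39 and 3.57 CPM in the controls and at 2.77, 3.30, 3.48 and 3.32 CPM with IgG. Psmc3ip was at 12.1, 10.4, 12.7 and 11.1 CPM in the controls and at 12.8, 11.3, 11.5 and 13.7 CPM with IgG. Both overlapped, with fold changes of 0.22 ± 0.18 and 0.09 ± 0.12, or 0.05 and 0.21 from pairs 2 and 4 alone. Over the 31 genes of the 26S proteasome that the rule found, without these additions, chaperones and other caps, the median fold change was 0.13, and 29 were above 0. With Adrm1 and Sem1, 29 of 33 were above 0 and the median was 0.12.

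The pairs differed in which proteasome genes were higher. Of the 44 genes, 33, 24, 29 and 38 were higher with IgG in pairs 1 to 4, with medians of 0.12, 0.02, 0.11 and 0.22. Of all 17537 tested genes, 8990, 8846, 9028 and 8792 were higher, with medians of 0.01, 0.00, 0.02 and 0.00. IgG library 4 was the highest of the 8 libraries for 23 genes and IgG library 1 for 14. Across the 44 genes, the changes of pairs 1 and 3 had a Spearman correlation of 0.727 with each other, and those of pair 4 had correlations of -0.438 with pair 1 and -0.547 with pair 3. Over all tested genes the same correlations were 0.666, -0.176 and -0.171. These are across genes of the same libraries, and genes are not independent replicates. Psmb4, Psmb5, Psmb6, Psmb7, Psmc1, Psmd9, Psmg2 and Psmg3 were lower in pairs 1 and 3 and higher in pair 4. Psma8, Psmc6, Psmd1, Psmd11, Psme3 and Psme4 were higher in pairs 1 and 3 and lower in pair 4.

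Sequence composition moved with these differences. The first of these sets, chosen by those changes, had a median GC content of 50.6% and a median exon length of 1942 bases, and the second of 43.5% and 4940.5 bases. Over the 44 genes, the change had Spearman correlations with the GC content of -0.32, 0.17, -0.41 and 0.38 in pairs 1 to 4, and with the exon length of 0.29, -0.26, 0.43 and -0.47. Over 17503 genes the correlations with GC content were -0.38, -0.03, -0.39 and 0.31, and with the exon length 0.21, -0.03, 0.21 and -0.35. The proteasome genes had the sign of all genes in every pair but for GC content in pair 2. The mitochondrial share was raised in the IgG libraries of pairs 1 and 3, as given above. The part of GC content, length and mitochondrial share in the changes of single genes was not tested beyond fits that removed the trends, took totals without mitochondrial genes or used pairs 2 and 4 alone. With trends of length and GC content removed in each library, the median fold change was 0.13, and 10 genes had an unadjusted p-value under 0.05 (22.7%, against 14.2% of all tested genes), namely Psma1, Psma5, Psma6, Psma7, Psmc3, Psmc5, Psmd1, Psmd13, Psmd4 and Psme2b. Again 0 passed the adjusted threshold, where 1.21% of all genes did, and the smallest adjusted p-value was 0.243 (Psma6).

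**Figure D4:**
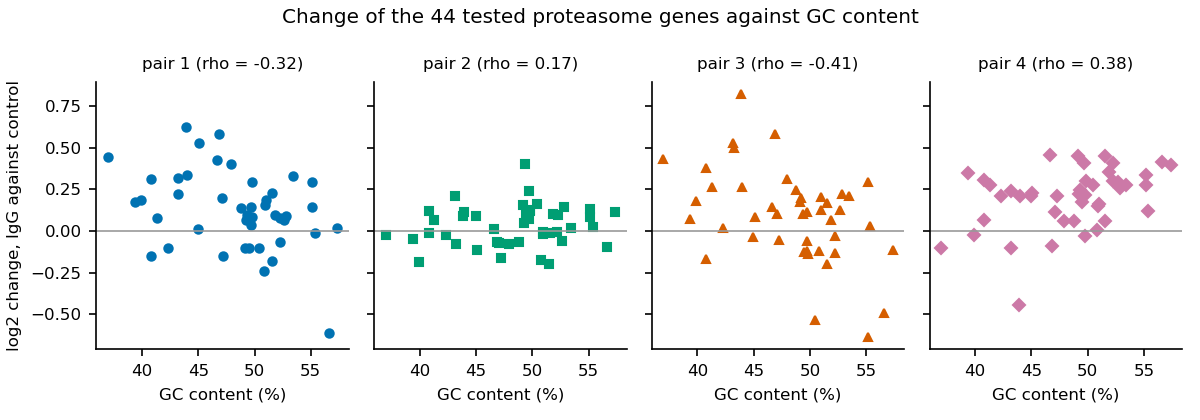
Log2 change, IgG against control, of the 44 tested proteasome genes against the GC content (%) of the longest transcript, 1 panel per pair, with Spearman's rho across genes. The points slope down in pairs 1 and 3 (rho -0.32 and -0.41) and up in pair 4 (0.38).

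The immunoproteasome genes were compared with the constitutive genes that they replace. All 5 had a fold change above 0 (against 49.1% of all tested genes), with a median of 0.33. Unadjusted p-values below 0.05 belonged to 4 of the 5, each with a raised level. By that measure 6.35% of all tested genes were raised and 3.85% lowered. The adjusted threshold was passed by 0 of the 5, against 0.393% of all tested genes (smallest adjusted p = 0.310). Psmb8 was at 129, 96.8, 126 and 87.7 CPM in the controls and at 149, 125, 147 and 128 CPM with IgG (0.33 ± 0.09, adjusted p = 0.319; 0.46 from pairs 2 and 4 alone). Psmb9 was at 48.3, 34.8, 49.3 and 30.4 CPM in the controls and at 55.9, 45.3, 49.2 and 50.5 CPM with IgG (0.33 ± 0.13, adjusted p = 0.460; 0.56 from pairs 2 and 4 alone). Both varied between the controls, where libraries 2 and 4 were the lowest. Psmb10 had a fold change of 0.14 ± 0.12, with changes of -0.07, 0.17, -0.07 and 0.55 in pairs 1 to 4. The cap genes Psme1 and Psme2 were at 0.28 ± 0.09 and 0.33 ± 0.09. Psmb10, Psme1 and Psme2 were at 0.36, 0.38 and 0.45 from pairs 2 and 4 alone.

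The log2 ratio of Psmb8 to Psmb5 was 1.55, 1.15, 1.47 and 1.02 in the controls and 2.37, 1.61, 2.18 and 1.15 with IgG. It was higher in 4 of 4 pairs, by 0.82, 0.46, 0.71 and 0.13 (mean 0.53 ± 0.31, SD, n = 4, exact sign-flip permutation test, two-sided p = 0.125). For Psmb9 to Psmb6 the differences were 0.39, 0.40, 0.20 and 0.28 (mean 0.31 ± 0.10, SD, exact permutation p = 0.125). For Psmb10 to Psmb7 they were 0.08, 0.18, 0.10 and 0.25 (mean 0.15 ± 0.08, SD, exact permutation p = 0.125). With 4 pairs 0.125 is the smallest p-value that this two-sided test can give, and it was 0.125 after adjustment over the 3 ratios. A ratio does not show which of its genes changed: in pair 1 the change of Psmb5 (-0.61) made up more of the 0.82 than that of Psmb8 (0.20), and in pair 4 both genes were higher. In pairs 1 and 3 Psmb10 (-0.07 in both) and Psmb7 (-0.15 and -0.17) were both lower, Psmb7 by more. In pair 3 Psmb9 was at -0.0015 and Psmb6 at -0.20.

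**Figure D5:**
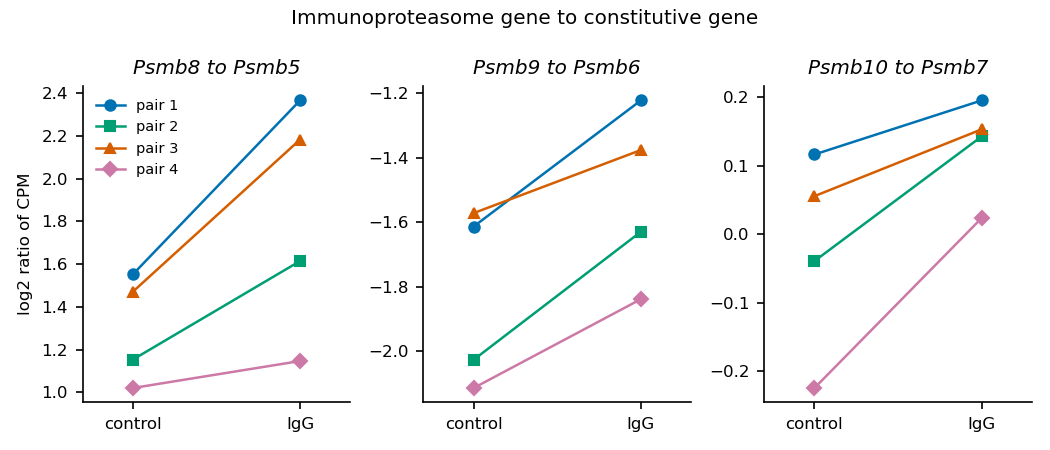
Log2 ratio of the CPM of each immunoproteasome gene to the constitutive gene it replaces, in the control and IgG library of each pair, with each panel on its own scale. Every line points up, by 0.13 to 0.82 for Psmb8 to Psmb5, 0.20 to 0.40 for Psmb9 to Psmb6 and 0.08 to 0.25 for Psmb10 to Psmb7.

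Genes that work with the proteasome were counted in the same fit. Of 15 proteasome-associated factors 9 had a fold change above 0 (against 49.1% of all tested genes), with a median of 0.05. An unadjusted p-value under 0.05 was found for 0 of the 15, against 10.2% of all tested genes. Pomp, the maturation factor of the core, was at -0.05 ± 0.12, and Adrm1, a ubiquitin receptor of the cap, at -0.11 ± 0.14. Pomp, Adrm1 and Sem1 were at 0.18, 0.18 and 0.30 from pairs 2 and 4 alone. Of the 7 regulators of proteasome genes, 4 were above 0 (against 49.1% of all tested genes), with a median of 0.01. At an unadjusted p-value under 0.05, where 6.35% of all tested genes were higher and 3.85% lower, 1 of the 7 was higher. This was Vcp, the ATPase that extracts ubiquitin-tagged proteins, at 177, 177, 176 and 181 CPM in the controls and 258, 194, 285 and 189 CPM with IgG (0.36 ± 0.12, adjusted p = 0.408). Every IgG library of Vcp lay above every control (against 2.6% of all tested genes), most so in libraries 1 and 3. Its fold change was 0.10 from pairs 2 and 4 alone. Nfe2l1, the transcription factor that raises proteasome genes when the proteasome is impaired, was at 180, 173, 172 and 173 CPM in the controls and 197, 193, 185 and 181 CPM with IgG. Its groups too did not overlap, but the lowest IgG library (181.1 CPM) lay barely above the highest control (179.8 CPM). The fold change was 0.12 ± 0.08 (adjusted p = 0.620), and 0.11 with pairs 2 and 4 alone. Vcp is named after its values were seen.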

How the data were processed

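RNA sequencing of 4 control and 4 IgG libraries was analysed. The authors deposited raw read counts by Ensembl identifier, without scaling or a gene filter. Before alignment to mm10 (GRCm38), low-quality, adapter-bearing and N-rich reads had been discarded. The submitters' processing notes name HISAT2 2.2.1, SAMtools 1.12, Picard 2.26.3, featureCounts, R 4.1.2 and edgeR 3.36.0. The annotation and the use of strand are not given in the sources used here, so overlapping and antisense genes are uncertain as single genes.

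Gene symbols, coordinates, exon lengths (union of exons) and GC content (longest transcript) came from GENCODE M21 of the same build, in which 55144 identifiers were found. Counts were filtered with filterByExpr, scaled with TMM and tested with the edgeR 4.0.16 quasi-likelihood test in R 4.3.3, with replicate number as a block, and adjusted by Benjamini-Hochberg over 17537 genes. CPM are scaled by TMM and log2 CPM used a prior count of 2. Same-numbered libraries share a date in the labels, and their deviations correlated at 0.28 to 0.468, against -0.384 to 0.278 for other pairs (11928 genes of at least 5 CPM). In simulated data of 17353 tested genes with 200 genes changed by a log2 value of 1, the blocked fit recovered 100% with 9 false calls and the fit without the block 38.5% with 0 false calls. Date effects shared by both libraries of a pair were built into these data, so the gain from the block was fixed in advance. The planted changes were larger than those of the proteasome genes and alike in all pairs. Thus the recovered share does not show how often changes as small as theirs would be called. No library was a duplicate of another in its group (chi-square per degree of freedom at least 5.00). Controls were not set against IgG libraries in this check. Alternatives used other scalings, filters, DESeq2 1.42.0, limma 3.58.1 and left-out libraries.

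Named in full were the catalytic genes, the 5 highest and 5 lowest fold changes, and the highest and lowest level per exon length of each role group, with Psmb8, Psmb9, Psmb10, Psme1, Psme2, Pomp, Nfe2l1 and Adrm1. The members and lists were chosen with earlier results of these data known. One further list of pathway genes is not reported here.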

Additional observations from a re-analysis of the deposited data

How the results depend on the processing

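The number of proteasome genes at an adjusted p-value under 0.05 was 0 in every alternative run, and the median fold change stayed above 0. The count over all genes was 69 with the replicate block and up to 376 in other settings, but 0 without the block, without pair 2 and in every fit without the block and 1 library except that without IgG 4 (6), where a 0 for the proteasome genes says nothing. The count at an unadjusted p-value under 0.05 was 4 with the replicate block and 5 without the replicate block, and these 2 fits gave the same median of 0.12. This count was 0 with library totals, 2 with upper quartile scaling, 2 with at least 10 counts in every library and 0 with DESeq2. With length and GC trends removed it was 10 (22.7%, against 14.2% of all tested genes). It was 0 with totals without mitochondrial genes, an alternative chosen after seeing the data, with a median of 0.040 and 30 of 44 above 0, where the median of all genes was -0.086 and 39 of 44 lay above it. Library totals moved the median to 0.020. For these scalings, the filter and DESeq2 the share of all genes is not given, so that their counts cannot be set against it. With libraries or pairs left out the count ran from 0 to 11. It was 0 without pair 1 and without pair 3 (4.44% and 4.24% of all genes), 5 without pair 2 (11.4%, against 9.2%) and 7 without pair 4 (15.9%, against 23.4%). Without the block, it was 0 without control 4 (against 3.94% of all genes), 1 without control 2 (2.27%, against 3.79%) and 3 without control 3 (6.82%, against 4.76%). Also without the block, it was 2 without control 1, IgG 1 or IgG 3 (4.55%, against 5.55%, 3.95% and 3.47%), and 11 without IgG 2 or IgG 4 (25%, against 12.5% and 23.2%). Psmb5 was lower at an unadjusted p-value under 0.05 without pair 4 and without IgG 4. The median ran from 0.06 (without pair 4) to 0.16. The study's criterion was met by 0 to 1 genes, the 1 being Psme4 without the block and without IgG replicate 4 (0.51). From pairs 2 and 4 alone, also chosen after seeing the data, the median was 0.14, with 36 of 44 above 0 and 3 at an unadjusted p-value under 0.05. With a pair left out, the mean differences of the ratios were 0.43 to 0.66 for Psmb8 to Psmb5, 0.29 to 0.35 for Psmb9 to Psmb6 and 0.12 to 0.18 for Psmb10 to Psmb7. Since every pair was higher, leaving out a pair could not turn them.

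Of the log2 fold changes of named genes under alternatives, 53 changed sign and 499 did not, and the cause was not tested. Psmb7 was at 0.0014 without the replicate block. Psmg4 was at -0.0058 with RLE scaling, -0.099 with library totals, -0.037 with upper quartile scaling, -0.0060 with no filter, -0.027 with at least 10 counts, -0.00016 with the likelihood ratio test, -0.0072 with DESeq2 and -0.080 with totals without mitochondrial genes. Psmb6 was at -0.086, -0.024, -0.014 and -0.066 with library totals, upper quartile scaling, at least 10 counts and totals without mitochondrial genes. Psmd11 was at -0.061, -0.055 and -0.041 with library totals, trends removed and totals without mitochondrial genes. Psmf1 was at -0.0064 and Psmc3ip at -0.0092 with library totals. From pairs 2 and 4 alone, Psmb5 was at 0.16, Psmb7 at 0.15, Psme4 at -0.18, Psmd1 at -0.079, Psmg3 at 0.22, Psmg2 at 0.022, Psmd11 at -0.10 and Psmf1 at -0.0028. With a pair or library left out, Psmb6 ran from -0.15 to 0.086, Psmb7 from -0.13 to 0.051, Psmd11 from -0.0100 to 0.11, Psmg2 from -0.14 to 0.036, Psmg3 from -0.17 to 0.11 and Psmg4 from -0.13 to 0.21. The median standard error of the 44 fold changes was 0.10, close to the median fold change, and the highest was 0.19, that of Psme4. Psmb11 had too few counts to be tested.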
